A study of Mus musculus with 8 samples.

Results

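The genes described here encode the enzymes that make, lengthen and desaturate fatty acids, together with the transcription factor gene Srebf1. They were taken by name (Acly, Acaca, Fasn, Scd1, Scd2, Elovl5, Elovl6, Fads1, Fads2 and Srebf1), through probe sets whose platform annotation gives a single gene symbol. All 10 genes were on the array, through 20 of its 22690 probe sets, where 12393 genes were named in this way. The samples were myotubes formed in low serum from C2C12, an established line of mouse myoblasts, and all were kept in differentiation medium (DMEM) with 2% horse serum. From day 4 the 4 control samples (A to D) had their medium changed every 48 h, while the 4 starved samples (E to H) went 4 days without a change, and RNA from all 8 was taken on day 8. Each sample was hybridised to 1 Affymetrix mouse expression array. The comparison asks how mRNA levels differ between myotubes left in old medium and myotubes that were re-fed. The groups share the cell line, the serum and the day of harvest, and the labels do not say that samples of a group came from separate cultures, so the p-values rest on a spread between samples that may be technical.

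Cells build fatty acids in the cytosol from citrate. ATP citrate lyase splits citrate into acetyl-CoA, acetyl-CoA carboxylase turns this into malonyl-CoA, and fatty acid synthase joins malonyl-CoA units into palmitate. Elongases then lengthen the chain in the endoplasmic reticulum and desaturases put double bonds into it. SREBP proteins, made as precursors in that membrane, are released when sterols are low and switch on most of these genes, SREBP1 with a bias to fatty acid genes and SREBP2 to cholesterol genes. Muscle cells need the products for the membranes of growing myotubes.

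Starved myotubes had lower signals for Acly, Fasn and Scd2, and a higher signal for Elovl5, while the other 6 genes, Srebf1 among them, did not pass the test. Through the brightest probe set of each gene these changes were modest, from 1.28-fold to 1.47-fold. Among the other called probe sets, Elovl5 1415840_at was 1.62-fold higher in starved arrays. Fads2 1419031_at was lower, with a level 1.83-fold higher in controls, although Fads2 did not pass through its brightest probe set. With limma's test across 13575 probe sets and a Benjamini-Hochberg adjusted p of 0.05, 3 of the 10 genes were lower and 1 was higher, each read through its brightest probe set. Of all 8352 genes tested, 11.2% passed, 6.93% as lower and 4.25% as higher. The groups did not overlap for 5 of the 10 genes, against 18.5% of all genes, and in 4 of these the starved arrays were the lower ones, against 10.3%. The median log2 difference, starved minus control, was -0.10 for the 10 genes and 0.01 for all genes. At the level of probe sets, 17 of the 20 were bright enough to be tested, and 5 of these were lower and 2 higher, where 6.23% and 4.35% of all tested probe sets were. In such samples a smaller share of cells of a type and less RNA per cell cannot be told apart. Levels below are log2 signals after quantile normalization, with SD over n = 4 arrays per group; differences are starved minus control with limma's standard error. Signals of different probe sets depend on their probes, so levels of different genes were not ranked against each other. Brightness did serve to filter probe sets for testing and to choose the probe set that stands for a gene.

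**Figure D1:**
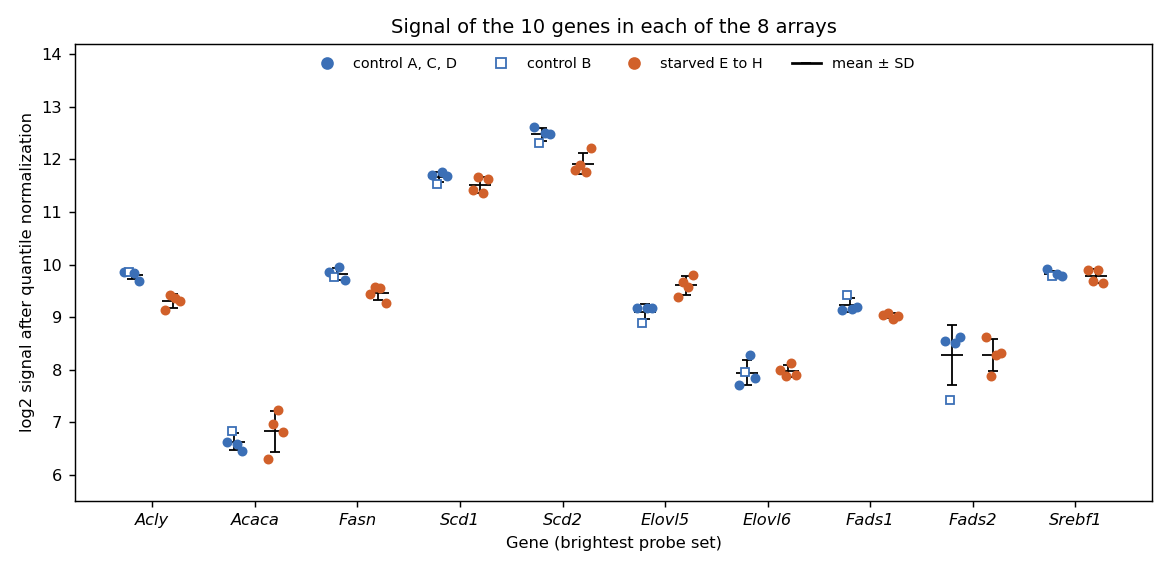
The y axis gives the log2 signal after quantile normalization and the x axis the 10 genes, each by its brightest probe set. Points are arrays (controls in blue, with control B as an open square, starved in orange), and bars are the mean ± SD of 4 arrays. Control and starved points are apart for Acly, Fasn, Scd2, Elovl5 and Fads1, and in Fads2 control B lies at 7.43, below the other 7 arrays.

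Array quality differed in 1 sample. On the Gapdh control probe sets, which show how complete the labelled RNA was, the log2 ratio of 3' to 5' signal was 1.45 in control B and between -0.26 and -0.06 in the other 7 arrays. Its beta-actin ratio of 0.32 was close to that of control D (0.30). The trimmed mean intensity ran from 317 to 455 in controls and from 243 to 366 in starved arrays (log2 difference -0.38, two-sided exact permutation p = 0.0857, n = 4 per group). Every one of 13 myotube markers was bright enough to be tested. Summed intensities in this paragraph are of deposited values before normalization, so they include differences in overall brightness between arrays. The myotube markers summed to 103554 to 129236 in controls and 82695 to 103983 in starved arrays. Of these markers 11 lay below 0, with a median log2 difference of -0.13, and limma called 2 lower, Des (-0.22, adjusted p = 0.0142) and Mef2c (-0.33, adjusted p = 0.00182), and 0 higher. Adipocytes make much fat and share these enzymes. Of 9 adipocyte markers on the array, 4 (Adipoq, Pparg, Cidec and Lep) were too dim to be tested. Of the other 5, 0 passed, with a median log2 difference of 0.13. The 9 markers had a summed intensity of 693 to 1270 in controls and 564 to 1202 in starved arrays. Of 5 tested markers of undifferentiated myoblasts 0 passed and 4 lay below 0, with a median log2 difference of -0.10. The groups did not overlap for 2 of them, where 18.5% of all genes did not. These were Top2a (-0.98 ± 0.38, limma adjusted p = 0.142) and Id1 (0.35 ± 0.11, adjusted p = 0.0817). The 6 myoblast markers on the array summed to 1082 to 1730 in controls and 906 to 1224 in starved arrays. Fibroblast markers did not move together. Pdgfrb alone of 4 tested was called, at -1.83 (limma, adjusted p = 1.28e-06), while Pdgfra (0.56), Lum (0.34) and Thy1 (0.20) had positive differences that did not pass. The 6 on the array summed to 1207 to 1849 in controls and 475 to 923 in starved arrays, of which Pdgfrb made up 797 to 1307 and 183 to 290. The part of the marker differences in the results below was not tested.

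Among the genes of cytosolic synthesis Acly and Fasn, which encode the enzymes at the start and the end, had lower mRNA signals. Acaca, the gene for the step between them, did not pass, and whether its change differed from theirs was not tested. Acly, the ATP citrate lyase, gave log2 signals of 9.85, 9.86, 9.83 and 9.69 in controls A to D and of 9.13, 9.43, 9.36 and 9.30 in starved E to H. Every starved array was thus below every control. Acly fell by 0.51 ± 0.09 on the log2 scale, from 9.81 ± 0.08 to 9.30 ± 0.13, a level 1.42-fold higher in controls (limma, adjusted p = 0.00566). A second probe set, 1439459_x_at, fell by 0.49 ± 0.12 (limma, adjusted p = 0.0226), with no overlap between groups. Its suffix x marks probes that can also bind other transcripts, and its call was lost without control D (limma, adjusted p = 0.0664) or starved F (0.0719). Another, 1425326_at, stood at -0.19 ± 0.11 and did not pass (limma, adjusted p = 0.318). The 2 remaining Acly probe sets were too dim to be tested, with intensities of 10.8 to 52.2 over the 8 arrays, and with these included the mean over all 5 probe sets no longer passed (-0.28, limma adjusted p = 0.177).

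Acaca, the acetyl-CoA carboxylase that makes the malonyl-CoA for chain building, was read by 1 dim probe set. Its log2 signals were 6.46 to 6.84 in controls and 6.30 to 7.23 in starved arrays, so that the groups overlapped, and the difference was 0.20 ± 0.22 (limma, adjusted p = 0.639). With 41.9% of probe sets dimmer, it lay just above the 40th percentile that a probe set had to pass to be tested. Its sign turned in values left unscaled (-0.12). Acacb, the carboxylase isoform that regulates fatty acid oxidation in muscle, was too dim to be tested, with log2 signals of 4.39 to 5.30 in controls and 4.99 to 6.63 in starved arrays.

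Fasn, the fatty acid synthase, was at 9.86, 9.76, 9.96 and 9.70 in controls A to D and at 9.43, 9.57, 9.55 and 9.27 in starved E to H. The 2 groups did not overlap, with 9.70 the lowest control and 9.57 the highest starved array. Fasn fell by 0.36 ± 0.10 (limma, adjusted p = 0.0449), a 1.28-fold difference. This call lay at the threshold. It was lost in each of the 8 fits that omitted 1 array, with adjusted p from 0.0510 to 0.132 and log2 differences from -0.40 to -0.30 in limma's fit, and also without the intensity trend or the brightness filter.

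Of the elongase genes, Elovl5 was higher and Elovl6 did not pass. Elovl5, which lengthens polyunsaturated fatty acids, was at 9.18, 8.89, 9.17 and 9.16 in controls and at 9.38, 9.67, 9.56 and 9.81 in starved arrays, so the groups did not overlap. Elovl5 rose by 0.51 ± 0.12 (limma, adjusted p = 0.0172), or 1.42-fold. The brightest Elovl5 probe set also carries the suffix x. The other, 1415840_at, rose by 0.69 ± 0.18 (limma, adjusted p = 0.0295), and it too had no overlap. Control B was the lowest array in both probe sets, and without it limma gave 0.43 (adjusted p = 0.0325) and 0.51 (adjusted p = 0.0263). The call of 1415840_at was lost in 7 of 18 alternatives, without control A or D or starved E, F or H (limma, adjusted p from 0.0522 to 0.0824), without the intensity trend (0.0537) and in unscaled values (0.407). The call of Elovl5 depends on the arrays being scaled. It held with median centring (limma, 0.44, adjusted p = 0.0389) and with 75th percentile centring (limma, 0.48, adjusted p = 0.0201). In unscaled values, where the median of all genes stood at -0.34, the Elovl5 difference was 0.12 and did not pass (limma, adjusted p = 0.732). The call was also lost without starved F (limma, 0.49, adjusted p = 0.0545).

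Elovl6, which lengthens palmitate and other saturated or monounsaturated chains, was at 7.71 to 8.27 in controls and 7.87 to 8.12 in starved arrays. The starved values lay within the range of the controls, and the difference was 0.03 ± 0.14 (limma, adjusted p = 0.929). Its other probe set was too dim to be tested. Compared within each array, the change of Elovl5 exceeded that of Elovl6 by 0.48 ± 0.19 (SE), with a two-sided exact permutation p of 0.0857, or 0.171 adjusted over the 4 gene pairs compared in this way.

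**Figure D2:**
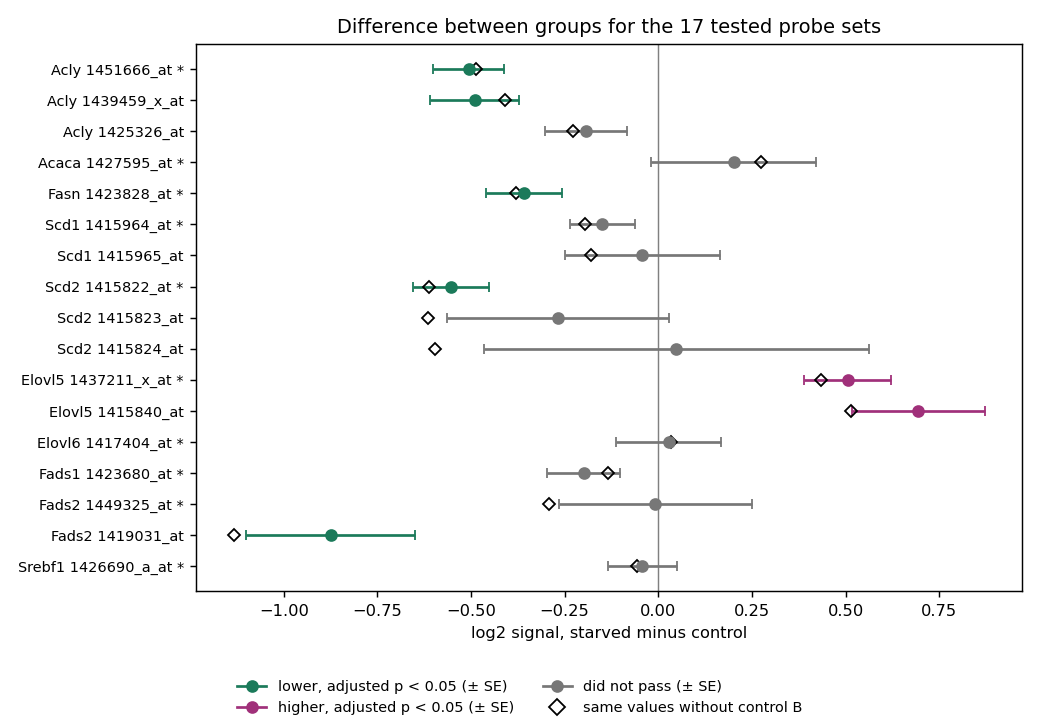
The x axis gives the log2 difference, starved minus control, and each line is 1 of the 17 tested probe sets (an asterisk marks the brightest of a gene). Circles with bars are the difference ± SE in limma's fit to all 8 arrays, coloured where the adjusted p was under 0.05, and diamonds are the differences of the same values without control B. For Scd2 the 3 circles run from -0.55 to 0.05, whereas the 3 diamonds lie between -0.62 and -0.60.

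The sequences before the transcription start of a lowered and a raised gene are shown because the 2 genes moved in opposite directions. They come from RefSeq (GRCm38.p6), whose table gave 9 start windows for 7 of the 10 genes and none for Scd1, Scd2 or Fads1. Of the 9 windows 5 (those of Acaca, Fasn and Srebf1) lie inside the gene's annotated span, so that the start they precede is an internal one. The 250 bases before the start were searched on both strands for the SREBP site and its core TCACNCCAC, which the full site contains, the E-box CACGTG, the NF-Y box CCAAT (bound by a factor that works with SREBP) and the direct repeat bound by LXR. Acly lies on the minus strand, at chr11:100528001-100528250, and Elovl5 on the plus strand, at chr9:77917115-77917364. Capitals mark motif matches; the Elovl5 stretch holds an E-box 161 bases before the start and NF-Y boxes at 71 and 17 bases, all NF-Y boxes there on the opposite strand, and the Acly stretch holds no match.
Acly: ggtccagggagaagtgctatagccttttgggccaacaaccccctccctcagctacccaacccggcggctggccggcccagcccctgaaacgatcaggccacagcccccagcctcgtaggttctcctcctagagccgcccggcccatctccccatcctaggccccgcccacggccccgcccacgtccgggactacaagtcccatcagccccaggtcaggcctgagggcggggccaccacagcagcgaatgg
Elovl5: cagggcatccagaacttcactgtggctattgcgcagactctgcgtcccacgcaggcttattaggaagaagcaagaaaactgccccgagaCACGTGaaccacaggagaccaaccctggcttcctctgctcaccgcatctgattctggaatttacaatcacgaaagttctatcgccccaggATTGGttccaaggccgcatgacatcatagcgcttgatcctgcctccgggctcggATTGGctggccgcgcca

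Fasn held NF-Y boxes 90, 62 and 59 bases before the internal start of its window. The last 2 overlap on opposite strands and are shown in 30 bases of the minus strand at chr11:120824588-120824617 (GRCm38.p6).
Fasn: ctcggtgtCCAATTGGtttcgatgtggagc

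NF-Y boxes were found in 4 of the 9 windows, those of Fasn and Elovl5 and 2 of the 3 windows of Srebf1, while 33.8% of all 32851 RefSeq windows held one. Of these 4 windows 3 lie inside the gene. The SREBP core was in 0 of the 9 windows and in 1.05% of all windows, the full SREBP site in 0.0731%, the E-box in 6.02% and the LXR repeat in 0.0152%; of these, the 9 windows held only the E-box of Elovl5. A match describes these letters only, and a missing match says only that the letters are not in this window.

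Of the stearoyl-CoA desaturases, which put the first double bond into saturated chains, Scd2 was lower and Scd1 did not pass. The brightest Scd2 probe set, 1415822_at, was at 12.62, 12.30, 12.50 and 12.48 in controls and at 11.81, 11.89, 11.77 and 12.22 in starved arrays. The groups did not overlap, although starved H came close to control B. Scd2 fell by 0.55 ± 0.10 (limma, adjusted p = 0.00517), a level 1.47-fold higher in controls. Scd1 was at 11.53 to 11.75 in controls and 11.35 to 11.67 in starved arrays, with overlap, and its difference was -0.15 ± 0.09 (limma, adjusted p = 0.330). Its dimmer probe set, 1415965_at, stood at -0.04 ± 0.21 (limma, adjusted p = 0.927), again with overlap. Within each array the change of Scd1 lay 0.40 ± 0.08 (SE) above that of Scd2. This gave the smallest two-sided exact permutation p that 4 against 4 arrays allow (p = 0.0286) and 0.114 after adjustment over the 4 pairs. The Scd genes are close copies, and how far their probes bind each other's transcripts is not known from the files.

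The other 2 Scd2 probe sets read control B far below the other controls. Probe set 1415824_at gave intensities of 677.6, 69.5, 533.1 and 649.2 in controls A to D and of 214.2, 296.0, 198.7 and 548.1 in starved E to H. Control B was the dimmest of all 8 arrays, while after normalization the other 3 controls, at log2 8.97 to 9.05, lay above the starved range of 7.93 to 8.94. The log2 difference was 0.05 ± 0.51 with all arrays (limma, adjusted p = 0.968) and -0.59 when limma was run without control B (adjusted p = 0.0924). Probe set 1415823_at stood at -0.27 ± 0.30 (limma, adjusted p = 0.642) and at -0.61 without control B, where it passed (limma, adjusted p = 0.0319). Over all 8 arrays the mean of the 3 probe sets did not pass (-0.26, limma adjusted p = 0.640).

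Control B lay more than 1 log2 unit below the mean of the other controls in 4 of the 17 tested probe sets, 2 of Scd2 and 2 of Fads2, where 2.73% of all tested probe sets did so. These deviations were -2.58 and -1.39 in Scd2 and -1.13 and -1.03 in Fads2. They go with the high Gapdh 3' to 5' ratio of that array; its part in them was not tested. Without control B limma called 5 of the 17 probe sets lower and 2 higher, the same numbers as with it, but Scd2 1415823_at entered and Fasn left (adjusted p = 0.0510). At the level of genes Acly and Scd2 were then lower and Elovl5 higher.

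**Figure D3:**
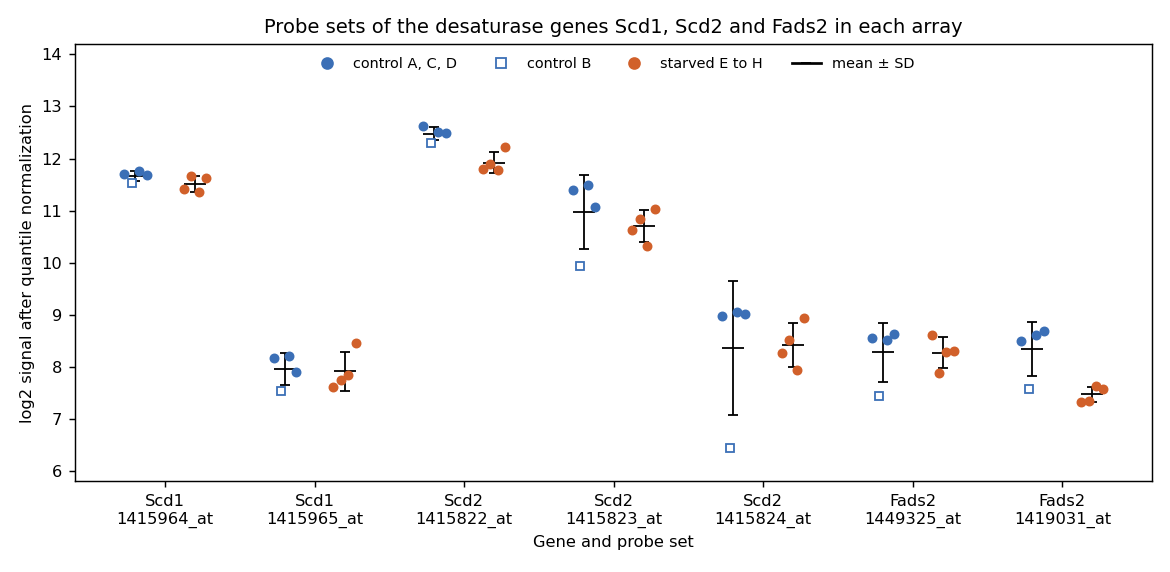
The y axis gives the log2 signal after quantile normalization and the x axis the probe sets of Scd1, Scd2 and Fads2. Points are arrays, with control B as an open square, and bars are the mean ± SD of 4 arrays. Control B lies apart from controls A, C and D in 2 probe sets of Scd2 and both of Fads2, and in Fads2 1419031_at it sits among the starved arrays.

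Of the fatty acyl desaturases that act on polyunsaturated chains, neither passed through its brightest probe set. Fads1 was at 9.13, 9.42, 9.16 and 9.19 in controls and at 9.05, 9.08, 8.96 and 9.02 in starved arrays. The groups did not overlap, yet the difference of -0.20 ± 0.10 did not pass (limma, adjusted p = 0.247). The 2 probe sets of Fads2 disagreed. The brighter, 1449325_at, was at 8.55, 7.43, 8.51 and 8.62 in controls and at 8.61, 7.87, 8.28 and 8.31 in starved arrays, which overlap, and its difference was -0.01 ± 0.26 (limma, adjusted p = 0.991). The dimmer, 1419031_at, was at 8.50, 7.57, 8.61 and 8.69 in controls and at 7.33, 7.35, 7.63 and 7.57 in starved arrays, so that only control B overlapped with the starved group. Brightness was taken over both groups. In controls alone the mean of 1419031_at, 8.34, was above the 8.28 of 1449325_at. Probe set 1419031_at fell by 0.88 ± 0.23 (limma, adjusted p = 0.0310), the largest difference of the 17 tested probe sets. Without control B limma gave -1.13 (adjusted p = 3.11e-04) for 1419031_at and -0.29 (adjusted p = 0.317) for 1449325_at. The call of 1419031_at was lost without any 1 of the other 7 arrays (limma, adjusted p from 0.0508 to 0.0921). Within each array the changes of Fads1 and Fads2, through their brightest probe sets, differed by -0.19 ± 0.38 (SE; two-sided exact permutation p = 0.743, 0.990 adjusted over the 4 pairs), a difference that turned to 0.15 without control B.

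Srebf1, which encodes SREBP1, was at 9.91, 9.78, 9.82 and 9.79 in controls and at 9.90, 9.68, 9.89 and 9.65 in starved arrays. The groups overlapped, and the difference was -0.04 ± 0.09 (limma, adjusted p = 0.831). Its single probe set reads the mRNA without separating the isoforms made from different promoters, and an mRNA level does not show how much of the protein precursor was cleaved. Srebf2, the SREBP2 gene, was at -0.04 ± 0.09 (limma, adjusted p = 0.826). Within arrays the changes of Srebf1 and Srebf2 differed by -0.0008 ± 0.06 (SE; two-sided exact permutation p = 1, also after adjustment). Both SREBP genes thus had log2 differences close to 0, with standard errors of 0.09.

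Regulators of SREBP and LXR, the sterol-sensing nuclear receptor, mostly did not pass. Of 25 tested genes of that list 1 was higher and 3 were lower, with a median of 0.06. Of all genes tested 4.25% were higher and 6.93% lower. The escort protein Scap (-0.18 ± 0.15, limma adjusted p = 0.527), the retention factor Insig2 (-0.13 ± 0.10, adjusted p = 0.469) and the LXR gene Nr1h3 (-0.10 ± 0.15, adjusted p = 0.739) did not pass. Thrsp and Mlxipl, lipogenic regulators of liver and fat, were too dim to be tested, and Insig1 was not analysed here. Fbxw7, the ubiquitin ligase subunit that marks active SREBP for breakdown, fell by 0.65 ± 0.13 (limma, adjusted p = 0.00810). Nfya, a subunit of the factor that binds the NF-Y box, fell by 0.52 ± 0.14 (limma, adjusted p = 0.0366). That call was lost without control B (limma, -0.42, adjusted p = 0.0731) and when its 2 probe sets were averaged (-0.08, adjusted p = 0.840). It was also lost without control C or D, without starved E, F or G, without the brightness filter and without the intensity trend. Ube2a, a ubiquitin-conjugating enzyme, fell by 0.35 ± 0.09 (limma, adjusted p = 0.0310), a call lost without any 1 of controls A to D or of starved F and G, without the intensity trend and with the mean of its probe sets. Trib3, a stress-induced pseudokinase that has been tied to breakdown of acetyl-CoA carboxylase, rose by 2.72 ± 0.16 (limma, adjusted p = 1.23e-06). Without control B only Fbxw7 of the 3 lower genes was called.

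Genes that feed carbon and NADPH to the pathway did not pass: 0 of 10 tested were called in limma's test, with a median of 0.04. Of 7 tested genes of mitochondrial fatty acid synthesis, a separate pathway that serves lipoic acid, 0 were called and the median was 0.08.

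Among other genes of elongation and desaturation 2 of 16 were higher and 2 lower, with a median of -0.04. The shares over all genes were 4.25% higher and 6.93% lower. Desaturases take electrons from cytochrome b5 and its reductases. Cyb5r1, a reductase of that family, was at 10.80 to 11.02 in controls and at 11.95 to 12.08 in starved arrays. The groups were far apart, and Cyb5r1 rose by 1.06 ± 0.07 (limma, adjusted p = 4.15e-06), a larger difference than that of any of the 10 genes. Cyb5r3, the main reductase for cytochrome b5, fell by 0.38 ± 0.07 (limma, adjusted p = 0.00333), and Cyb5b, the cytochrome b5 of the mitochondrial outer membrane, fell by 0.43 ± 0.09 (limma, adjusted p = 0.0114). Cyb5a, the other cytochrome b5 gene of the list, stood at -0.30 ± 0.12 with overlap and did not pass (limma, adjusted p = 0.154). Fads3, a further gene of the Fads family, rose by 0.34 ± 0.07 (limma, adjusted p = 0.00713). The calls of Cyb5r3 and Fads3 were lost with median or 75th percentile centring and with the mean of their probe sets, and Fads3 stood at -0.03 in unscaled values.

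Acyl-CoA synthetases and binding proteins, which activate and carry fatty acids, had 3 of 9 tested genes lower and 0 higher, with a median of -0.11. Over all genes 6.93% were lower and 4.25% higher. Acot7, a thioesterase that frees fatty acids from CoA, fell by 0.66 ± 0.12 (limma, adjusted p = 0.00410). Acsl6, a long-chain acyl-CoA synthetase, fell by 0.60 ± 0.10 (limma, adjusted p = 0.00322). Dbi, the acyl-CoA binding protein, was at 11.91, 11.92, 11.78 and 11.83 in controls and at 11.29, 11.33, 11.26 and 11.48 in starved arrays, with no overlap, and fell by 0.52 ± 0.07 (limma, adjusted p = 5.77e-04). These 3 calls held under every alternative run.

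The cholesterol genes, the other main set under SREBP control, are given for comparison. Of 18 tested 13 were lower and 0 higher with a median of -0.79, beside 3 lower and 1 higher of the 10 fatty acid genes with a median of -0.10. Over all genes 6.93% were lower and 4.25% higher. Hmgcs1, which makes the precursor of mevalonate, fell by 1.15 ± 0.14 (limma, adjusted p = 2.72e-04). Later steps of the pathway gave log2 differences of -1.59 for Idi1, -1.69 for Cyp51 and -1.32 for Msmo1. With all probe sets of a gene averaged, limma gave -1.13 for Cyp51 (adjusted p = 0.00288), -1.58 for Idi1, -1.32 for Msmo1 and -1.42 for Hmgcs1. Scd2, the fatty acid gene with the largest difference through its brightest probe set, fell by 0.55. Whether the 2 lists differ was not tested.

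**Figure D4:**
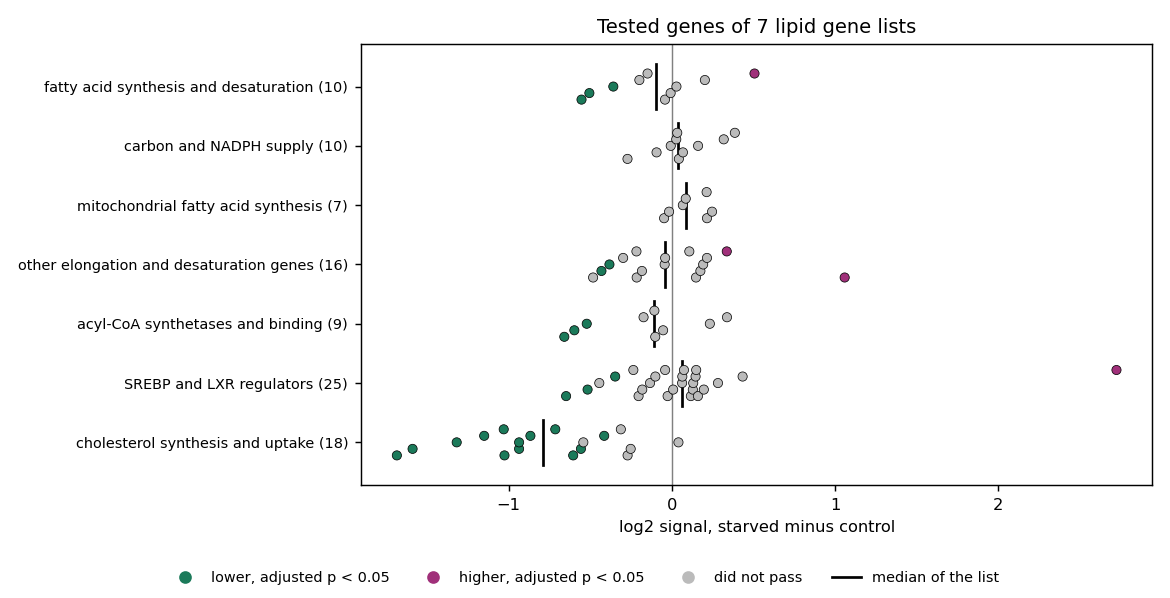
The x axis gives the log2 difference, starved minus control, of every tested gene (brightest probe set) in 7 lists, with the number of tested genes in brackets; vertical position within a list has no meaning. Colours mark genes with an adjusted p under 0.05 and black lines are list medians. The median of the 18 cholesterol genes lies at -0.79, and those of the other 6 lists lie between -0.11 and 0.08.

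The tested genes most like 3 of the members were found by the root mean square difference of log2 profiles over the 8 arrays, each centred on its own mean. For Fasn these were Rapsn (0.066), Sh3bgrl3 (0.084) and Mast2 (0.087), where the median over all genes was 0.30. For Scd1 they were Pfn1 (0.040), Rnf115 (0.048) and Svil (0.054), with a median of 0.26. For Srebf1 they were Zfp764 (0.046), Son (0.048) and Pgm1 (0.052), with a median of 0.23. None of the 9 is a gene of the lipid lists, and a small difference for Scd1 or Srebf1 means a profile that is nearly flat.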

How the data were processed

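The deposited table holds 1 intensity per probe set and array on a linear scale; no source used here names the software behind it. All 8 columns were used, and no 2 were identical. Since arrays differed in brightness, values were raised by an offset of 10.9 (the 10th percentile), put on the log2 scale and quantile normalized. After removal of 64 control probe sets, those whose mean exceeded the 40th percentile (log2 6.61) were tested. The offset shrinks the differences of dim genes, and precision is limited by the number of arrays. Of 22626 probe sets 20380 had 1 symbol in the 2016 annotation, of which 20351 matched RefSeq (GRCm38.p6) by gene number, 691 had several and 1555 none. A gene is its brightest tested probe set.

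Groups were compared by limma 3.58.1 (lmFit, eBayes with trend) under R 4.3.3, with Benjamini-Hochberg adjustment over 13575 probe sets. Only the limma fit was run on simulated data, with independent noise in each value. That simulation had no array effects and no normalization, so it does not bear on the scaling or on control B. For single values all 70 labellings were enumerated in a two-sided exact permutation test. Named genes are all members, the called genes of each other list (at most 4 per direction), 8 fixed regulators, and the nearest profiles. Cyb5a was added to stand beside Cyb5b. The members and lists were chosen with earlier results of these data known; the 4 gene pairs and the count of control B deviations were added after the values were seen. Alternatives covered scaling, offset, filter, model settings, probe set choice and leaving out each array. A protein comparison was planned and not run. Plots were made in Python 3.11.15 with matplotlib 3.10.9.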

Additional observations from a re-analysis of the deposited data

Results flagged for a closer look

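Of 78 sets of 4 arrays checked for 1 array apart from the other 3, 8 had a gap larger than the 95% limit of Dixon's test, where chance gives about 1 in 20. In 5 of the 8 the array was control B. Its Gapdh 3' to 5' log2 ratio was 1.45. Its log2 signal was 6.43 in Scd2 1415824_at, against 8.97 to 9.05 in the other controls. It was 8.89 in Elovl5 1437211_x_at, against 9.16 to 9.18. It was 7.43 in Fads2 1449325_at and 7.57 in Fads2 1419031_at, against lowest values of 8.51 and 8.50 in the other controls. Control C was low for Cyb5r1 (10.80) and for Cyp51 (9.86), and control D was high for Insig2 (9.25). The cause of these deviations was not tested.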

How the results depend on the processing

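Across 19 alternatives the calls of Acly and Scd2 were lost only when all probe sets of a gene were averaged, which left 1 gene (Fasn) called lower. In unscaled values 0 were called higher. There 45 genes rose and 1027 fell, so that 4.20% of called genes were higher against 38.01%. The median of the members then stood at -0.12 relative to all genes, against -0.11. The unscaled log2 differences of Acly, Fasn and Scd2 were larger, at -0.90, -0.75 and -0.87. With arrays left out singly, 0 (without starved F) to 1 members were called higher and 2 lower. No paired analysis was possible because the replicate letters differ between the groups.

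Signs turned only in differences that had not passed, apart from Fads3. Unscaled values gave -0.12 for Acaca, -0.31 for Elovl6, -0.027 for Fads3 and -0.32 for Scd2 1415824_at. That probe set stood at -0.0049 with median centring and -0.36 with array weights, and Fads2 at 0.0043 with 75th percentile centring. Averaged probe sets gave -0.012 for Elovl6 and 0.056 for Srebf2. Leaving out single arrays gave -0.049 to 0.14 for Elovl6, -0.29 to 0.13 for Fads2, -0.081 to 0.0021 for Srebf1, -0.080 to 0.0051 for Srebf2, -0.59 to 0.28 for Scd2 1415824_at and -0.23 to 0.058 for Scd1 1415965_at. The within-array differences ran from -0.34 to 0.15 for Fads1 minus Fads2 and from -0.048 to 0.041 for Srebf1 minus Srebf2. The cause was not tested. Dim genes such as Acaca are limited by signal.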
